A study of Rattus norvegicus with 2 samples.

Results

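The genes described here encode chromatin modifiers and PHD finger proteins, and their transcripts were measured with Affymetrix rat arrays in microglial cells, the macrophages of the brain, from the Sprague Dawley strain. Members were chosen by symbol: Phf, Kdm, Kmt, Hdac, Sirt, Smarc, Chd, Brd, Setd, Ezh, Kat, Tet, Dnmt, Ing or Arid followed by a number, or by 1 letter and a number, together with Phip, Ep300, Crebbp, Suz12 and Eed. The rule gave 124 genes of 14217 with a probe set naming them alone, and these 124 genes had 241 probe sets. Microglial cells kept for 3 h without oxygen and glucose (oxygen-glucose deprivation, OGD), which models ischaemia in culture, made up one group (1 array). Resting microglial cells with no exposure made up the other (1 array). Both were grown in DMEM with serum, and the labels give neither an age nor the number of animals or cultures.

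Chromatin modifiers set how tightly DNA is packed and which genes can be read. Writers such as the Kmt and Kat enzymes add methyl or acetyl groups to histones, erasers such as the Kdm and Hdac enzymes remove them, and readers such as PHD fingers and bromodomains bind the marked tails. Remodellers of the SWI/SNF, ISWI and CHD families use ATP to move nucleosomes. The JmjC-type Kdm enzymes and the Tet enzymes, which oxidise methylated cytosine, need oxygen, iron and 2-oxoglutarate, so oxygen supply bears on their activity as well as on their transcripts. An expression array reads the transcripts only.

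The deposited values are linear intensities, 1 per probe set and array. The median of each array, 19.7 on the OGD array and 19.6 on the resting array, was used as a floor: a lower value was set to it, and a gene was called measured when it was above the floor on at least 1 array. Each gene was represented by its brightest probe set, and differences are log2 OGD minus log2 resting. There is 1 array per group, so no difference could be tested and each describes these 2 arrays alone. Probe sets that name the same gene gave the only available spread, an SD of 0.16 on the log2 scale. It was taken over the 43 members with several of them above the floor on each array. This SD compares probe sets on the same 2 arrays and is not an error between arrays or cultures. Of 12 microglial markers on the array 11 were above the floor on both arrays, among them Aif1, Itgam and Cx3cr1, with summed intensities of 1315 on the OGD array and 1379 at rest. Most markers of other cells were under the floor, except in the oligodendrocyte lineage. Above the floor on both arrays were 2 of 6 astrocyte markers (Gfap and Slc1a2) and 3 of 5 of the oligodendrocyte lineage (Cspg4, Mbp and Sox10). So were 1 of 5 for neurons (Syn1) and 2 of 5 for endothelial cells and fibroblasts (Col1a1 and Vwf). The summed intensities of these lists were 115.3, 115.2, 104 and 138 on the OGD array, against 95.5, 114.7, 93.3 and 117 at rest. The astrocyte genes Aqp4 and Aldh1l1 and the neuron genes Rbfox3 and Snap25 were under the floor on both arrays. Whether these cells contributed to the values of the members was not tested, and in bulk RNA fewer cells of a type and less RNA per cell cannot be told apart.

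The promoters of 4 members are shown because these members stand at points the results turn on. Phip had the largest positive difference and Tet2 was the higher of the Tet genes. Kdm3a and Kdm4b are known, from human cells, as genes induced by the hypoxia-inducible factor HIF. The windows run 5′ to 3′ on the strand of the gene, from 250 bases before to 50 bases after a transcript start in RefSeq (build GRCr8), and of 2 Kdm3a starts the one with a match is given. Capitals mark ACGTG or GCGTG, the cores to which HIF binds, on either strand.
Phip (chr8:92770972-92771271, strand -): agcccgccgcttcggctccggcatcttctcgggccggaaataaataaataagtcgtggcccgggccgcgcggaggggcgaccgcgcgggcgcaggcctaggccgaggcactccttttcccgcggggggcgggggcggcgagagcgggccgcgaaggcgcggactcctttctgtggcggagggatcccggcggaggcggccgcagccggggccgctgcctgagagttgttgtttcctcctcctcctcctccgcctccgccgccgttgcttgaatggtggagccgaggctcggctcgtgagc
Tet2 (chr2:224746137-224746436, strand -): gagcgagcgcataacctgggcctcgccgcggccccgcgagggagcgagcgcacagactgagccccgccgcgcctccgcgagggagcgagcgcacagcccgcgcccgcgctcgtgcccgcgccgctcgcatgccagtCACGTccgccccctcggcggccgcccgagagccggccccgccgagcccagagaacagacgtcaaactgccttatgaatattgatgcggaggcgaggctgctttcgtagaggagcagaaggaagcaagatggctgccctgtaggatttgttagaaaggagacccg
Kdm3a (chr4:105233062-105233361, strand -): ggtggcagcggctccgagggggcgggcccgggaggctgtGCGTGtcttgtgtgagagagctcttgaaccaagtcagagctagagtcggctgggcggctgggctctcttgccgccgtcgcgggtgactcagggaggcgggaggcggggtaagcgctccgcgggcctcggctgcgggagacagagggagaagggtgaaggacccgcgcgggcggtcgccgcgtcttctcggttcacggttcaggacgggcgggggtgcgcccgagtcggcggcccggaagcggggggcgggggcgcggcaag
Kdm4b (chr9:1245653-1245952, strand +): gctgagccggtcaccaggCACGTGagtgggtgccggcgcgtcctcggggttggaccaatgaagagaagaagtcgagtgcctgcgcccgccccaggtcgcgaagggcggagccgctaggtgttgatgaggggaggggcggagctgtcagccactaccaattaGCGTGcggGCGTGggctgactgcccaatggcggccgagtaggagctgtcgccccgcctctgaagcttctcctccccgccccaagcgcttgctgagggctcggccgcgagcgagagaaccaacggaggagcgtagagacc

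The Phip window held no such core. The Tet2 window held 1, an ACGTG on the opposite strand whose leftmost base lies 114 bases before the start, and the Kdm3a window held 1 GCGTG, 211 bases before it. The Kdm4b window held 4, of which a pair is 1 CACGTG read on both strands. Of 155 promoter windows that matched 107 of the members, 52.9% held either core and 16.1% held ACGTG, against 41.6% and 19.3% of all 33469 windows of this length, and 59.7% and 24.5% of the 8933 windows that belong to measured genes. By window, the members thus had neither core more often than measured genes did. Windows are not independent, since a gene with several starts counts several times. The 155 windows came from 107 members, some of them under the floor, and the 8933 windows from 8016 measured genes. Shares by gene were not compared. ACGTG overlaps the palindrome CACGTG, which counts on both strands, and a match describes letters, not binding.

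Of the 124 members 107 were measured, 106 of them above the floor on both arrays. Their differences were small and leaned to the lower side: 38 members were higher on the OGD array, which is 35.5%, and 63 were lower, 58.9%, with 6 equal. Over all measured genes 42.8% were higher and 51.3% lower. The median difference was -0.03 over the members and -0.008 over all measured genes, and the SD of the differences over genes above the floor on both arrays was 0.17 for the members and 0.15 for all genes. With a loess trend on brightness removed, 49 members were higher and 58 lower, with a median of -0.007 against -0.003 over all genes, so the lean of the whole list depended on the scaling. By brightness, members in the middle of 3 equal classes of all genes had a median of -0.07 against 0 for all other genes, and those in the brightest class -0.02 against -0.03.

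**Figure D1:**
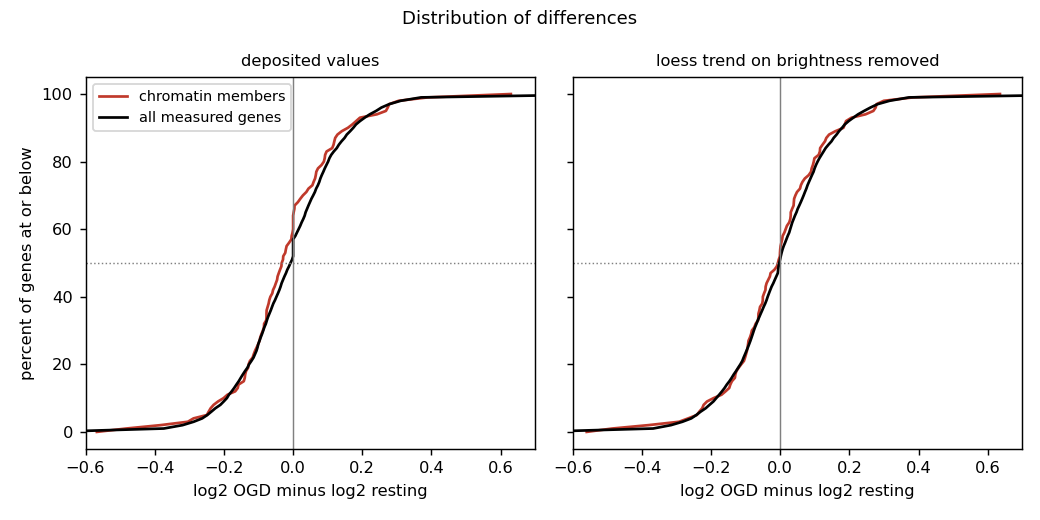
Cumulative distribution of the log2 difference (OGD minus resting, x axis) as the percent of genes at or below it (y axis), for the 107 measured chromatin members (red) and all 9580 measured genes (black), with deposited values (left) and after removal of a loess trend on brightness (right). The member line crosses 50 percent at -0.03 on the left, against -0.008 for all genes, and at -0.007 on the right.

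Of the measured members 1 was higher by 1.5-fold or more and 0 were lower, where 0.0731% of all measured genes were higher and 0.0418% lower by that much. The gene past the threshold was Phip, which encodes a bromodomain and WD-repeat protein that binds insulin receptor substrate and which has no PHD finger in spite of its symbol. Phip had an intensity of 79.2 on the OGD array, against 51.2 on the resting array, which is 1.55-fold higher. Its other probe sets were under the floor on both arrays, at 17.1 and 5.04 after OGD against 13.7 and 5.04 at rest, so no other probe set checks the difference. Just inside the threshold stood Phf20, 1.48-fold lower, and Dnmt3b, 1.40-fold lower.

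At a lower fold of 1.2, 7 members were higher, which is 6.54% of those measured, where 3.56% of all genes were. Lower by that much were 5 members, 4.67%, where 3.97% of all genes were. The higher ones were Phip, Phf24, Sirt4, Tet2, Suz12, Setdb1 and Arid4b, and the lower ones were Phf20, Dnmt3b, Ezh1, Kmt2d and Kdm2b. The share on the lower side was near that of all genes. On the higher side the count rested on dim probe sets, since with the floor at the 70th percentile only Phip, Suz12 and Arid4b remained of these 7. Arid4b was just past this fold at 1.203-fold, and Hdac1 just short of it at 1.15-fold higher. On the lower side Kdm2b was past it at 1.23-fold, and Kdm5c was short of it at 1.19-fold.

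**Figure D2:**
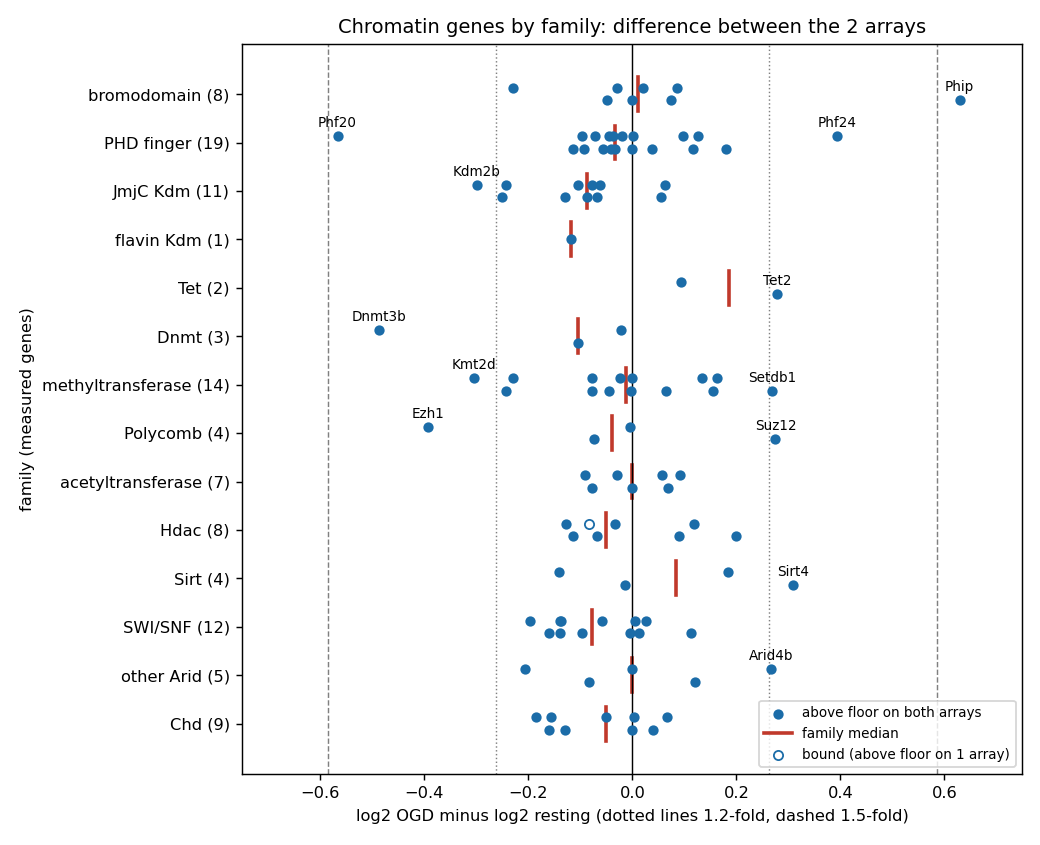
Log2 difference between the OGD and the resting array (x axis) for each of 107 measured members by family (y axis, number of genes in parentheses), with 1 point per gene, the family median as a red bar and an open point for the 1 gene known only as a bound. Phip alone lies past the dashed 1.5-fold line, Phf20 and Dnmt3b lie between the 1.2-fold and 1.5-fold lines on the lower side, and 9 of 11 JmjC Kdm genes lie left of 0.

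The JmjC-type histone demethylases were mostly lower on the OGD array. Of 13 such Kdm genes among the members, which did not include Kdm4a or Kdm6a, 11 were measured. Of these 9 (81.8%) were lower and 2 higher, where 51.3% of all measured genes were lower. The family median was -0.09, against -0.008 over all measured genes. The same split was found after quantile or loess scaling, with medians of -0.08 and -0.09. None was past 1.5-fold and only Kdm2b was past 1.2-fold. Kdm2b, which acts on histone H3 and recruits a Polycomb complex to CpG islands, had 48.3 on the OGD array against 59.4 at rest. Its paralogue Kdm2a had 406 against 444, 225 against 235 and 71.5 against 69.8 in its 3 probe sets, so 1 of the 3 was not lower.

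Kdm3a and Kdm3b remove methyl groups from lysine 9 of histone H3. Kdm3a had 221 on the OGD array against 231 at rest, a difference of -0.06, and Kdm3b had 38.6 against 41.5, a difference of -0.11. Kdm4b, a demethylase of the same mark when it is trimethylated, had differences of -0.07, 0.10 and -0.10 in its 3 probe sets. These values are smaller than the SD between probe sets. That SD is not an error between arrays, so whether Kdm3a or Kdm4b changed could not be tested. Kdm4c, which human cells also induce in hypoxia, was under the floor on both arrays at 3.52 after OGD and 3.90 at rest. Kdm4d had 43.3 against 51.3, a difference of -0.24 that Setd2 shares to 8 decimals.

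The Kdm5 enzymes demethylate lysine 4 of histone H3, a mark of active promoters. Kdm5b was lower in all 4 of its probe sets above the floor, with 43.8, 36.3, 24.0 and 21.4 on the OGD array against 46.5, 38.9, 35.4 and 23.8 at rest. The differences were -0.09, -0.10, -0.56 and -0.15, so they shared a direction and 1 probe set lay well below the other 3. Kdm5c had 84.8 against 101, a difference of -0.25, in the 1 probe set above the floor. Kdm5a, which has been described in human cells as sensing oxygen through its activity, had differences of 0.06, 0, 0.02 and -0.21 in 4 probe sets, with no common direction.

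Kdm6b, which removes the Polycomb mark on lysine 27 of histone H3 and is known as an inflammation-induced gene in macrophages, had 48.1 on the OGD array against 46.3 at rest. Kdm7a had 24.6 against 25.9. Both differences were below 0.1 in size. Kdm8 was under the floor on both arrays, at 15.2 after OGD and 15.6 at rest. Among the PHD finger genes, Phf2 and Phf8 also encode JmjC proteins, and they had differences of -0.09 and 0.002. The flavin-dependent demethylase gene Kdm1a had 108 against 117, a difference of -0.12, while Kdm1b was under the floor.

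The Tet genes lay on the other side. Tet3 was higher in all 3 of its probe sets, with 238, 40.1 and 26.3 on the OGD array against 223, 34.7 and 25.9 at rest. Its differences were 0.09, 0.21 and 0.03. Tet2 had 23.9 against 19.7, which is 1.21-fold higher, but its resting value was at the floor of 19.6. With the floor at the 70th percentile Tet2 was no longer measured. Tet1 was listed at 5.79 on both arrays, under the floor. Together the 13 measured Kdm and Tet genes that depend on oxygen had a median of -0.08. Of them 4 were higher and 9 lower (69.2%), where 51.3% of all measured genes were lower.

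**Figure D3:**
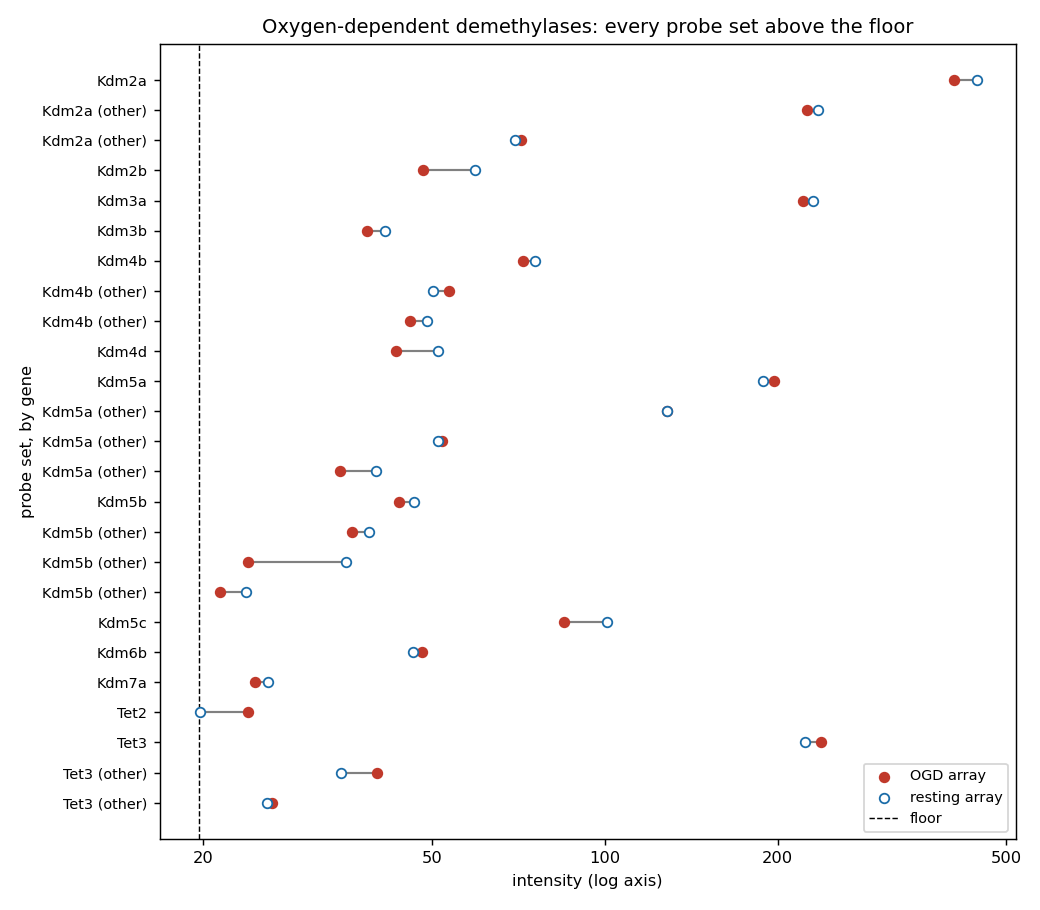
Intensity on a log axis (x axis) of every probe set above the floor for the oxygen-dependent Kdm and Tet genes (y axis, probe sets of a gene below one another, brightest first), on the OGD array (filled red) and the resting array (open blue), with the floor as a dashed line. All 4 Kdm5b probe sets are lower and all 3 Tet3 probe sets higher on the OGD array, and the resting value of Tet2 lies at the floor.

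DNA methyltransferases were lower in all 3 genes measured, or in 2 of 3 after quantile scaling, and only Dnmt3b by more than a small amount. Dnmt3b, which sets new methylation, had 27.7 on the OGD array against 38.8 at rest in its 1 probe set, which is 1.40-fold lower. Dnmt3a, its paralogue, had 462 against 497 and 161 against 163, differences of -0.11 and -0.02. Dnmt1, which copies methylation after replication, had 127 against 129, a difference of -0.02 that became 0.002 after quantile scaling. The size for Dnmt3b was therefore not shared by the other 2 genes.

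Genes of Polycomb repressive complex 2, which methylates lysine 27 of histone H3, had differences in both directions. The catalytic subunit gene Ezh1 had 40.3 on the OGD array against 52.9 at rest, which is 1.31-fold lower. The other catalytic subunit gene, Ezh2, had 304 against 320.2 and 107 against 114, differences of -0.07 and -0.10. Suz12, a core subunit gene, had 56.2 against 46.4, which is 1.21-fold higher. Eed, the subunit gene for binding the mark, had 607 against 609, a difference of -0.005 that became 0.03 after loess scaling. Ezh1 and Suz12 each rested on 1 probe set above the floor. Suz12 and Ezh1 thus lay past 1.2-fold in opposite directions while Eed lay near 0.

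Among the Kmt and Setd methyltransferase genes 14 of 17 were measured, with 5 higher, 8 lower and 1 equal, and with 7 higher and 7 lower after quantile or loess scaling. Kmt2e, a PHD and SET domain gene of the MLL family, was higher in all 4 probe sets above the floor, with 187, 81.9, 54.3 and 44.6 on the OGD array against 168, 78.8, 45.6 and 37.1 at rest. Its differences were 0.16, 0.06, 0.25 and 0.27, so all 4 shared a direction. Kmt2d, an enhancer methyltransferase, had 292 against 361 in its brightest probe set, which is 1.24-fold lower, but 237 against 224 in another. The mean over its probe sets was -0.11, so its place past 1.2-fold depended on which probe set was read. Setd2, the methyltransferase of lysine 36 of histone H3, had 143 against 169.7, a difference of -0.24. Setdb1 and Setdb2, both linked to lysine 9 of histone H3, differed in opposite directions, with 30.5 against 25.3 (1.21-fold higher) and 45.2 against 52.9 (a difference of -0.23). Setd3, which methylates actin, had -0.08 in 1 probe set and 0.31 in another. Kmt2a had 0.13, 0.07 and -0.17, Kmt2b had 0.16 and -0.10, and Setd5 had -0.04, -0.02 and 0.18, so none of these genes had a common direction.

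Histone acetyltransferases had a narrow range in their brightest probe sets, from -0.09 to 0.09 over 7 measured genes. Of these 3 were higher, 3 lower and 1 equal, with a median of 0. With the mean over probe sets 0 were higher and 7 lower, with a median of -0.03. The coactivator gene Ep300, an interaction partner of HIF, had 978 on the OGD array against 998 at rest, a difference of -0.03 that became 0.006 after quantile or loess scaling. Its paralogue Crebbp had 523 against 503 and 63.6 against 73.0, differences of 0.06 and -0.20. Kat2a and Kat2b were under the floor on both arrays. Kat14, the gene with the largest brightest-probe-set difference here, had 130.2 against 122, a difference of 0.09, but 88.0 against 98.1 in its other probe set. Kat7 had -0.09. Kat6a, a MYST-type enzyme gene, had 0, 0.08 and -0.26 in 3 probe sets. None of the family was past 1.2-fold in its brightest probe set.

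Of 10 deacetylase genes of the Hdac families 8 were measured, and 3 were higher and 5 lower. Hdac1, a subunit gene of several corepressor complexes, had 109 on the OGD array against 94.7 at rest and 28.4 against 26.9, differences of 0.20 and 0.08. Hdac2, its paralogue, had -0.07, and Hdac3, the partner of the nuclear receptor corepressors, had -0.11. Hdac4, a class II enzyme gene, had -0.13. Hdac10 was higher in both probe sets, by 0.09 and 0.15. Hdac7 was above the floor at rest only, at 18.3 after OGD against 20.8, so it is known only to be at least 1.06-fold lower. The SD between probe sets was as large as most of these differences.

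Of the sirtuins, NAD-dependent deacylases, 6 genes were members and 4 of these were measured. Sirt1 was not among the members. The mitochondrial Sirt4 had 25.3 on the OGD array against 20.4 at rest, which is 1.24-fold higher and just above the floor. Sirt6, a nuclear deacetylase, had 62.7 against 55.2, a difference of 0.18. Sirt2, which is mainly cytosolic, had 30.1 against 33.1, a difference of -0.14. Sirt7 had a difference of -0.02, which became 0.002 after loess scaling. The mitochondrial Sirt3 and Sirt5 were under the floor on both arrays, so nothing can be said of them.

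Measured subunit genes of the SWI/SNF remodelling complex that carry a Smarc symbol were lower by small amounts. Those with other symbols differed in both directions. All 8 measured Smarc genes of this complex were lower on the OGD array, where 51.3% of all measured genes were lower. Their median was -0.14, with a range from -0.20 for Smarcd2 to -0.005 for Smarcc2. This grouping was chosen after the values were seen, and 7 of the 8 were lower after median, quantile or loess scaling. Smarcc1 was under the floor on both arrays, at 13.8 after OGD and 13.4 at rest. With no floor it was counted too, and 8 of 9 genes were lower and 1 higher. Of the 15 probe sets of the 8 genes above the floor 14 were lower, where 50.3% of all measured probe sets naming 1 gene were. After loess scaling the median of the 8 genes was -0.12. Smarcc2, with -0.005, -0.01 and -0.33 in its 3 probe sets, was then at 0.02 in the brightest. Smarcb1, a core subunit gene, had 129.7 on the OGD array against 143 at rest, and Smarce1 was lower in all 3 probe sets by 0.16, 0.09 and 0.07 on the log2 scale. The ATPase gene Smarca2 had -0.14 and -0.11, and Smarca4, the other ATPase gene, had -0.10, -0.16 and 0.19, the exception among the probe sets. In their brightest probe sets 0 of the 8 genes passed 1.2-fold.

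Smarca5, the ATPase gene of the ISWI remodellers, carries a Smarc symbol but is no SWI/SNF subunit, and it was higher. Its 3 probe sets had 721, 462 and 35.2 on the OGD array against 667, 404 and 31.2 at rest, differences of 0.11, 0.19 and 0.17. The Arid subunit genes of SWI/SNF had brightest probe sets near 0, with 0.03 for Arid1a, 0.01 for Arid1b and 0.004 for Arid2. All 3 probe sets of Arid1b were higher, by at most 0.08. The mean over probe sets was -0.09 for Arid1a and -0.10 for Arid2, so these 2 changed sign with the choice of probe set. Brd7 and Brd9, bromodomain subunit genes of this complex, had differences of 0.09 and -0.05. Of SWI/SNF subunit genes outside the symbol rule, Pbrm1 had 144.7 against 131 and a difference of 0.14, Dpf2 had 0.02 and Dpf3 0.05. Ss18 had -0.08, Bcl7a -0.12, Bcl7b -0.08, Bcl7c -0.33, Actl6a -0.01 and Actl6b -0.03, while Dpf1 was under the floor. Arid4a and Arid4b, subunit genes of the Sin3 corepressor complex, had 46.7 against 53.9 and 95.0 against 79.0, the first lower by 0.21 and the second higher by 0.27 on the log2 scale.

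All 9 members with a Chd symbol were measured, with 3 higher, 5 lower and 1 equal. These include Chd1l but not Chd5, which was not among the members. Their median was -0.05, and none was past 1.2-fold. With the mean over probe sets 1 was higher and 8 were lower, with a median of -0.13. Chd2 had 233 and 67.3 on the OGD array against 265 and 76.1 at rest, differences of -0.19 and -0.18 that lay close together. Chd4, the ATPase gene of the NuRD corepressor complex, had 480.9 on both arrays, 369 against 372, and 158 against 185. Chd7 had 0.004 in its brightest probe set and -0.23 and -0.17 in the others. The dimmer probe sets of Chd4 and Chd7 were lower than their brightest ones by at least 0.17 on the log2 scale in 3 of 4 cases, so the gene-level values near 0 hold for the brightest probe sets only. Chd8 had 377 against 359.9 and a difference of 0.07.

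Bromodomain genes other than Phip had a narrow range. Brd1, a scaffold of acetyltransferase complexes, had 64.7 and 63.4 on the OGD array against 75.9 and 75.8 at rest, differences of -0.23 and -0.26, but its remaining one had 0.03. Brd2, a reader of acetylated histones, had -0.03 and -0.10, the first of which was 0.0004 after loess scaling, and Brd3 had 0.02. Brd10 had 0, 0.18 and -0.08 in 3 probe sets. The 7 Brd genes had a median of 0, with 3 higher, 3 lower and 1 equal. Phip was thus far from the other bromodomain genes in these values.

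The PHD finger genes proper numbered 20, of which 19 were measured, 7 higher, 11 lower and 1 equal, with a median of -0.03. After quantile scaling, or with the mean over probe sets, 9 were higher and 10 lower, with medians of -0.007 and -0.001. Phf20, a reader of methylated histones in an acetyltransferase complex, had 58.2 on the OGD array against 86.3 at rest in its brightest probe set, which is 1.48-fold lower. Another probe set of Phf20 had 67.0 against 63.3, a difference of 0.08, so the pair disagreed by 0.65. Phf24 had 31.7 against 24.1, which is 1.31-fold higher, and 21.5 against 26.7 in its other probe set, a difference of -0.31. For these 2 genes the direction depended on the probe set. Phf20l1, the paralogue of Phf20, was higher in all 3 probe sets above the floor, with 89.2, 33.2 and 29.2 against 82.3, 25.8 and 24.7 and differences of 0.12, 0.36 and 0.24.

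Other PHD finger genes lay closer to 0. Phf7 had 64.0 on the OGD array against 56.5 at rest, a difference of 0.18. Phf1, a Polycomb-associated reader, had -0.06, and Phf19, another one, was under the floor. Phf21a, a subunit gene of the Kdm1a corepressor complex, had -0.03, 0 and 0.03 in 3 probe sets. The Ing genes, whose products read methylated lysine 4 of histone H3, ranged from -0.11 for Ing1 to 0.13 for Ing4, and Ing2 had -0.07 and -0.08 in 2 probe sets. The other probe set of Ing1 had 0.14.

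Probe sets of 1 gene agreed in direction for fewer than 50% of the members. Of 43 members with several probe sets above the floor on each array, 7 were higher in all, 10 were lower in all and 26 were mixed or had a probe set with equal values. That is 39.5% in a single direction, against 40.5% of 1902 such genes over the whole array. Of 22 members with 3 or more, 5 were higher in all (Arid1b, Kmt2e, Phf20l1, Smarca5 and Tet3) and 3 lower in all (Kdm5b, Smarcc2 and Smarce1) with the deposited values, which is 36.4% in a single direction against 25.5% of 412 such genes over the whole array. The SD between probe sets of a gene was 0.16 for the members and 0.15 over all genes, close to the SD of 0.17 between members, so most single differences cannot be told from the spread within a gene.

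**Figure D4:**
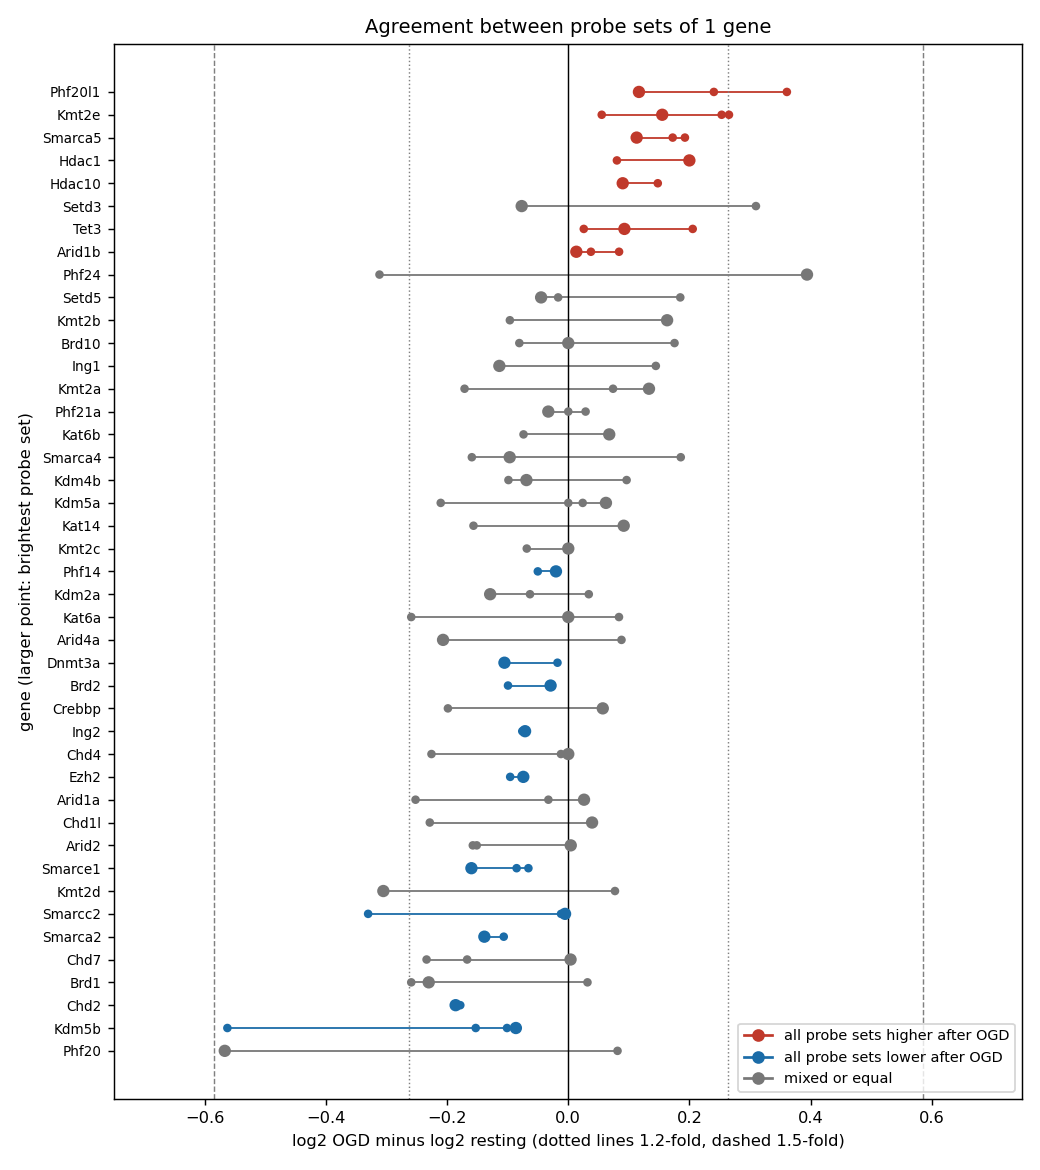
Log2 difference between the OGD and the resting array (x axis) for every probe set above the floor on each array, for the 43 members with several such probe sets (y axis, ordered by their mean), with a line over their range and a larger point for the brightest. With the deposited values, in red are 7 genes higher in every probe set, in blue 10 lower in every probe set, and in grey 26 with mixed or equal values, among them Phf20 and Phf24 with the widest ranges.

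Chromatin genes outside the symbol rule were read from a list of 118 genes, of which 106 had a probe set naming them alone and 92 were measured. Of these 28 were higher (30.4%), 61 lower (66.3%) and 3 equal, where 42.8% of all measured genes were higher and 51.3% lower. The median was -0.04, against -0.008 over all measured genes, and 0 passed 1.5-fold. At 1.2-fold 3 were higher (3.26%) and 5 lower (5.43%), where 3.56% and 3.97% of all genes were. The 3 higher ones were Nsd1, Pcgf3 and Suv39h2, a methyltransferase gene of lysine 9 of histone H3 that was above the floor on the OGD array only, at 24.0 against 18.8, and so at least 1.22-fold higher. On the lower side Ncoa2, a nuclear receptor coactivator gene, had 26.8 on the OGD array against 38.1 at rest (1.42-fold). Asxl1, a Polycomb-related gene, had 212 against 271 (1.28-fold), and Bcl7c, a SWI/SNF subunit gene, had 161 against 203 (1.26-fold). Of genes above the floor on each array, the highest were as follows. Nsd1, a methyltransferase of lysine 36 of histone H3, had 65.4 against 53.9 (1.21-fold), Pcgf3, a Polycomb subunit gene, had 74.9 against 61.8 (1.21-fold), and Atrx, a remodeller gene that did not reach 1.2-fold, had 134 against 113 (1.19-fold). Smarcad1 and Smarcal1, which have 2 letters before the number and so are not members, had differences of 0.21 and -0.14.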

How the data were processed

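RNA of microglial cells was labelled by oligo(dT)-primed cDNA synthesis and in vitro transcription with biotin, per the labels' protocols. The deposited values are intensities on a linear scale, 1 per probe set and array, while how the authors corrected, summarised and normalized them is not given in the sources drawn on here. Groups were taken from the labels. Of 31042 probe sets besides 57 array controls, 20826 named 1 gene in the platform annotation, and updating symbols by Entrez ID to RefSeq (GRCr8) changed 0 of the 241 member probe sets (240 had their ID there). Bmi1 was not analysed here. The floor, the choice of probe set and the 1.5-fold threshold of the series' design text are described with the results, and 1.2-fold was added. The number of arrays limits the precision. Members, families and lists were chosen with earlier results of these data known. Any member may be named; both intensities, or for some only the differences, are given for those past 1.5-fold, the 4 largest in each direction, the largest absolute difference of each family, the measured JmjC Kdm and Tet genes and members with 3 or more probe sets above the floor. Alternatives changed the floor, scaling, probe set choice, pseudocount or unit counted. Python 3.11.15, pandas 2.3.3, numpy 2.4.6, statsmodels 0.14.6 and matplotlib 3.10.9 were used.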

Additional observations from a re-analysis of the deposited data

How the results depend on the processing

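No paired analysis was possible because each group had 1 array. Phip was higher under every alternative, from 0.56 to 0.64 on the log2 scale. It was past 1.5-fold in all of them except with a pseudocount at the 25th percentile, where 0 members were. Phip had 1 probe set above the floor, which every alternative read, so their likeness is no separate check of its difference. Under no alternative was a member lower by 1.5-fold. The number higher by 1.2-fold, 7 with the deposited values, was 3 with the floor at the 70th percentile and 2 with the pseudocount, and 9 with no floor and 10 with probe sets counted. The number lower by 1.2-fold, 5 before, was 3 with the mean over probe sets, and 8 with no floor or with probe sets counted. Over all genes the counts past 1.2-fold moved too, with fewer on each side at the 70th percentile floor and more with no floor. With probe sets counted, 5.65% of measured member probe sets were higher and 4.52% lower by 1.2-fold. Over all measured probe sets naming 1 gene these shares were 3.89% and 4.21%. The shifts with the floor are thus not particular to the members. The median of the members, -0.033, was -0.00699 after quantile and -0.00671 after loess scaling, and that of the JmjC Kdm and Tet genes stayed between -0.08 and -0.06. The median of the other chromatin genes, -0.044, was -0.026 with probe sets counted. Phf20 had 0.08 in place of -0.57 when probe sets with the suffixes _a, _s or _x were left out, and -0.24 with the mean over probe sets. Its brightest probe set carries the suffix _a. With that mean Phf24 had 0.04. With it 11 of 107 members changed sign, against 6 after quantile and 7 after loess scaling. The cause of these changes was not tested, apart from fewer genes being measured at the higher floor. Values near the floor give the least certain differences, Tet2, Sirt4 and Setdb1 among them.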

Other observations

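Many differences had exactly the same size. Of 31042 probe sets besides the controls 2701 had equal values on both arrays, and 19980 of the others, 64.4% of all, shared the size of their log2 difference to 8 decimals with at least 1 other probe set. Among the 241 member probe sets 16 were equal and 135 (56.0%) shared their size in this way. The most common size, 0.079, was found in 245 probe sets, 121 higher and 124 lower on the OGD array, with resting intensities between 3.22 and 305. The size of 0.244 that Kdm4d and Setd2 have in common was held by 116 probe sets, 53 higher and 63 lower. The deposited differences therefore fall largely on repeated steps, and equal differences of 2 genes do not show that the genes moved together.

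Probe sets that name a member together with other genes were left out of all counts. There were 2 of them: that of Kmt5a and Kmt5al1 had 101 on the OGD array against 114 at rest, and that of Setdb2, Phf11 and Phf11b had 134 against 142.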
